A study of Mus musculus with 2 samples.

Results

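The integrin and laminin genes described here are 36 symbols, taken by name from the table of all 22156 genes: 26 integrin chains and 10 laminin chains. One symbol, *Itgam*, stands on 2 rows with different Ensembl identifiers, so the genes fill 37 rows. All of these identifiers were found in GENCODE M21 on GRCm38. Of the 36 genes, 24 had at least 10 counts over both libraries and could be tested, and 12 could not.

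RNA was sequenced from cartilage cells of newborn C57BL/6 J mice, primary chondrocytes grown as a monolayer without treatment, in 1 control library and 1 *Myl3*-KO library. The knockout carries a Cre driven by the *Col2a1* promoter that removes the floxed *Myl3* gene, which encodes a myosin light chain, so deletion depends on cells having used that promoter. The controls are floxed littermates (*Myl3* flox/flox) in the methods of the study and WT in the labels, and the labels name rib cartilage as the tissue. The control library held 17612434.91 expected counts (estimated reads per gene) and the *Myl3*-KO library 13477976.98, at which 3 counts, the floor used below, equal 0.170 and 0.223 CPM (counts scaled to the library total).

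The labels could not be checked from the deleted gene, since *Myl3* had 0 counts in both libraries. Nor do the markers establish the labelled cell type: of 16 chondrocyte markers in the table, *Acan*, *Matn1*, *Matn3*, *Hapln1* and *Cnmd* were at 0 in both libraries and *Col2a1* had 30 and 27 counts. The best counted of this list were *Sox5* with 893 and 684 counts, *Sox9* with 866 and 480, *Col11a2* with 293 and 395 and *Col11a1* with 121 and 99. The 16 together summed to 24.25 FPKM (fragments scaled by transcript length and library) in the control and 24.07 FPKM in *Myl3*-KO, while the 12 fibroblast and perichondrial markers summed to 3399 and 3806 FPKM. Most of the latter sum was *Col1a2*, at 2252.9 and 2629.69 FPKM. Of the same list, *Thy1* was at 0 in both libraries, *Fap* had 1 and 0 counts and *Dpt* 5 and 2. In bulk RNA, fewer cells of a type and less RNA per cell cannot be told apart.

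Integrins are cell surface receptors made of 1 alpha and 1 beta chain that bind matrix proteins outside the cell and, through talin and kindlin, the actin cytoskeleton inside it. The alpha chain largely sets the ligand: collagens, laminins, or proteins with the arginine-glycine-aspartate (RGD) motif such as fibronectin. Laminins are trimers of an alpha, a beta and a gamma chain and the main glycoproteins of basement membranes. Chondrocytes are known to hold collagen and fibronectin receptors of the beta1 family, and laminins occur in the thin matrix around them.

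The promoters of 4 integrin genes of high or low level are shown. *Itgb1* and *Itgb5* had the highest FPKM of the integrin chains, and *Itga10* and *Itga2*, collagen receptor chains, were under 1 FPKM and at 0. Each line is the 150 bases before the RefSeq start site on GRCm38.p6, written along the gene's own strand, with each CG in capitals. They lie at chr8:128685504-128685653 on the plus strand (*Itgb1*), chr16:33829515-33829664 on the plus strand (*Itgb5*), chr3:96645434-96645583 on the plus strand (*Itga10*) and chr13:114932101-114932250 on the minus strand (*Itga2*).
Itgb1: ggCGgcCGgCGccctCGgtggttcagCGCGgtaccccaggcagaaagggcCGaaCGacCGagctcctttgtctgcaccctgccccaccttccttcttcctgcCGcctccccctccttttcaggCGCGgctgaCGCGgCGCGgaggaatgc
Itgb5: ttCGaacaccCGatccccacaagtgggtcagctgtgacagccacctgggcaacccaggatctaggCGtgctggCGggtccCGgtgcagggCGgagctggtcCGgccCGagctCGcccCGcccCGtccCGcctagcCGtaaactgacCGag
Itga10: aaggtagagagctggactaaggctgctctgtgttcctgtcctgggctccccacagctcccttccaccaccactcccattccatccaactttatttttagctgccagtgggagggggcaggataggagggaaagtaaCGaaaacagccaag
Itga2: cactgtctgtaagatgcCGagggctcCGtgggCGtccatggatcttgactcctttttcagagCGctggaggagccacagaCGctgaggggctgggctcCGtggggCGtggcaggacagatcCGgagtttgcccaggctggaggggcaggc

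These stretches hold 16, 14, 1 and 8 CG pairs. A window of 250 bases before the RefSeq start was used for 23 of the 36 genes, 1 for each gene. Windows on chromosome 18, which holds *Lama3*, were not used for these. Some windows lay inside the gene as GENCODE lists it, such as those of *Itga9* and *Lamb3*. The 32851 RefSeq windows set beside them were not reduced to 1 for each gene. The 23 genes had a median of 11 CG pairs, against 6 over all 32851 windows of the same length (quartiles 2 and 16). The median was 16 for the 8 of these genes at 1 FPKM or more in both libraries and 10 for the 15 under 1 FPKM. The ranges overlapped, at 2 to 22 and 0 to 19, with 3 in *Lamb2* and 18 in *Itga8*. The GC box letters GGGCGG or CCGCCC stood in 8 of the 23 windows and in 32.7% of all windows. By level, 5 of the 8 and 3 of the 15 windows held them. A match of letters is a description of the sequence and not evidence that a factor binds there.

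By level, the genes fell into a small group that carried nearly all of the signal and a large group close to 0. Only 9 of the 36 had 1 FPKM or more, and each of the 9 had it in both libraries: *Itgb1*, *Itgb5*, *Lamb2*, *Lamc1*, *Itga5*, *Itgav*, *Itga3*, *Lamb1* and *Itga2b*. The other 27 lay between 0 and 0.62 FPKM in the control and between 0 and 0.91 FPKM in *Myl3*-KO. *Itgb1* ranked high in the whole table, with 225 genes above it in the control and 223 in *Myl3*-KO by FPKM. The 12 genes too low for the test had 0 to 4 counts in the control and 0 to 3 in *Myl3*-KO, and *Itga2*, *Itgal*, *Itgam*, *Lama1* and *Lama3* had 0 in both, which allows up to 0.170 and 0.223 CPM.

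**Figure D1:**
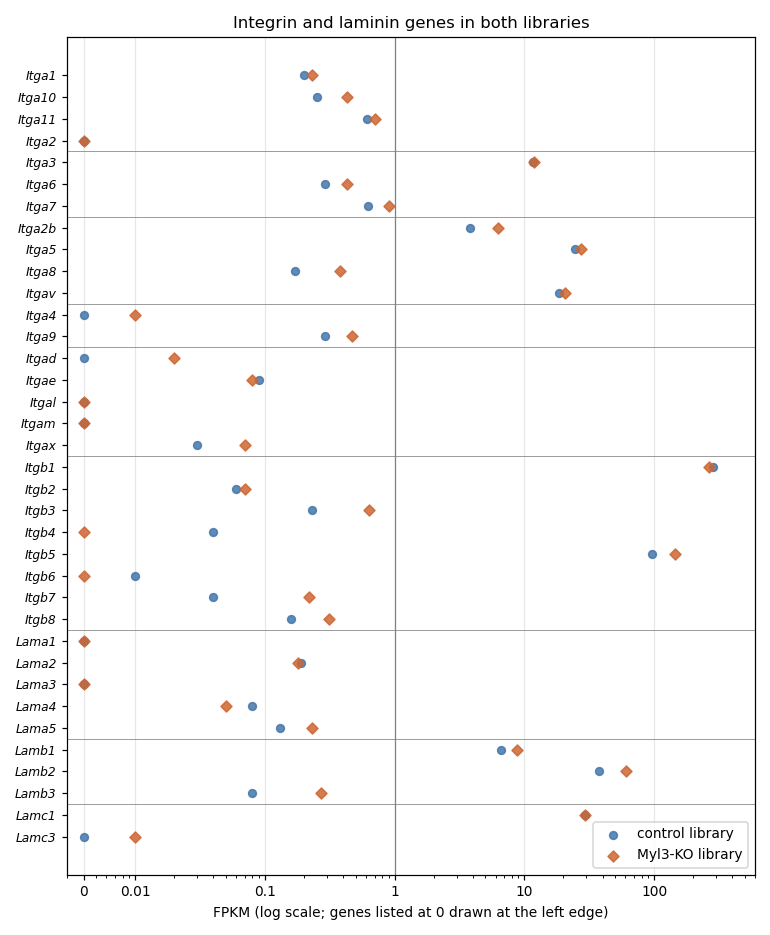
FPKM of each integrin and laminin gene in the control library (circles) and the *Myl3*-KO library (diamonds) on a log axis, with genes listed at 0 drawn at the left edge and grey lines between the chain groups. The 9 genes to the right of the line at 1 FPKM are there in both libraries, and the laminin alpha chains all lie to its left.

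To ask which chains differed between the genotypes, the counts of each gene were set against the library totals by a two-sided exact binomial test, and p-values were Benjamini-Hochberg adjusted across the 12431 genes tested. Ratios are log2 CPM ratios of *Myl3*-KO over control with 95% Clopper-Pearson intervals, and both cover counting error only. The test compares the reads of these libraries and not the genotypes, because there was 1 library of each. A gene counted as past 2-fold where the adjusted p was under 0.05 and the log2 ratio at least 1 in size, and as past counting error where the adjusted p alone was under 0.05.

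Higher past 2-fold in *Myl3*-KO were 4 chains, all at low levels: *Itgb3*, *Itga8*, *Itga9* and *Lamb3*. That is 16.7% of the 24 genes tested, where 1.15% of all genes tested were higher past 2-fold. Lower past 2-fold were 0 of the 24, where 0.394% of all genes tested were. Past counting error, 10 of the 24 (41.7%) were higher against 18.6% of all genes, and 1, *Itgb1*, was lower against 16.8%. The median log2 ratio of the 24 was 0.49 and that of all genes tested 0.02, with 19 of the 24 above 0 and 5 below.

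These counts depend on level and on the error assumed. Genes of few counts leaned towards *Myl3*-KO throughout the table. The median log2 ratio of all genes was 0.16 at 10 to 50 counts over both libraries and -0.04 at 5000 or more. Of all 4212 genes tested under 500 counts 3.30% were higher past 2-fold. That share was 5.81% at 10 to 50 counts and 6.58% at 50 to 100. The 4 chains past 2-fold lay in these narrower ranges, 2 of 7 tested chains in each. The 15 integrin and laminin genes tested under 500 counts had a median of 0.78 with 4 past 2-fold. The 9 above it had a median of 0.15 with 0 past 2-fold, 5 higher past counting error and 1 lower. Of all 8219 genes with at least 500 counts, 0.0487% were higher past 2-fold. Past counting error, 1837 (22.4%) of them were higher and 1938 lower. When edgeR's exact test was given a preset coefficient of variation between replicates of 0.1, 0 of the 24 were called in either direction at any ratio, and 41 genes in the whole table were higher and 20 lower.

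**Figure D2:**
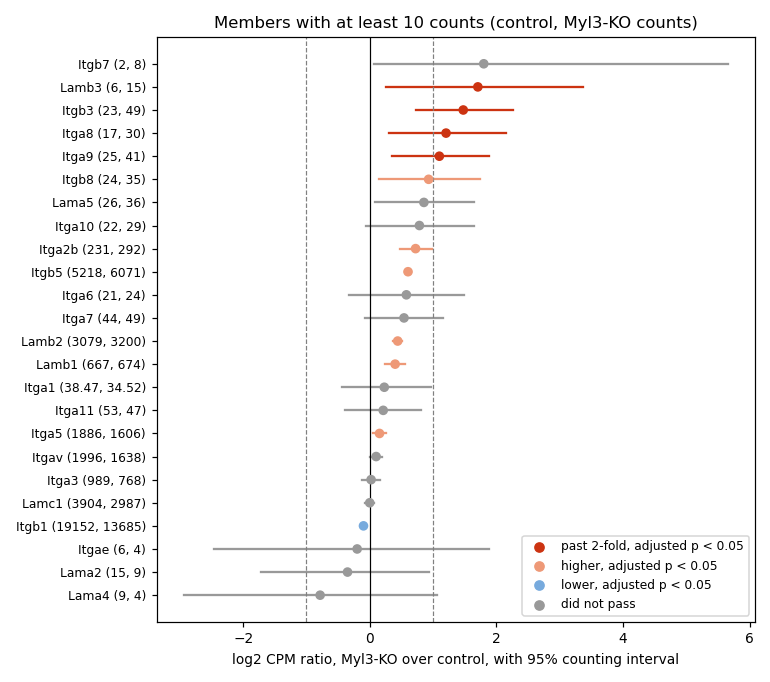
Log2 CPM ratio of *Myl3*-KO over control for the 24 genes tested, sorted by ratio, with counts of both libraries in brackets and bars for the 95% counting interval; dashed lines mark 2-fold. The 4 dark red genes are past 2-fold with wide bars from few counts, and *Itgb5*, *Lamb2* and *Lamb1* lie to the right of 0 with narrow ones.

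**Figure D3:**
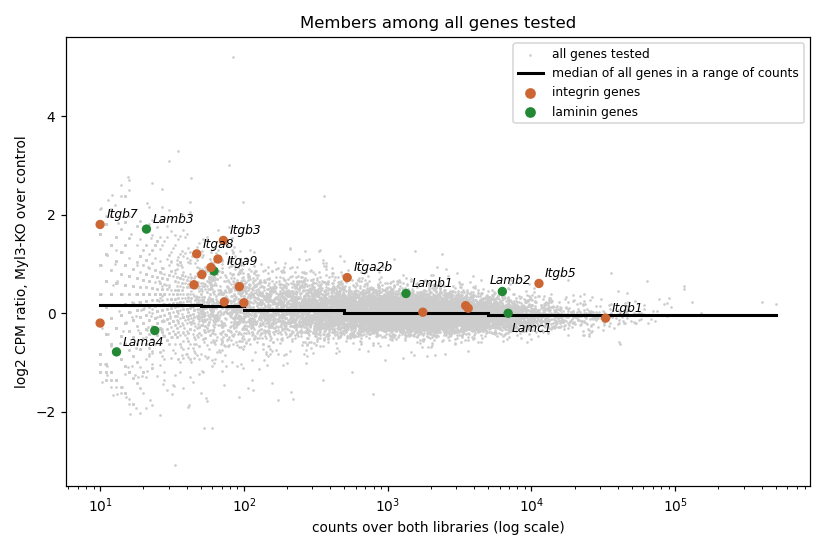
Log2 CPM ratio against counts over both libraries (log scale) for all 12431 genes tested (grey), integrin genes (orange) and laminin genes (green), with the median of all genes in each range of counts in black. The median line lies above 0 at the left, 0.16 under 50 counts, and the genes past 2-fold lie there too.

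Among the integrin beta chains, *Itgb5* was the clearest difference. *Itgb5* (ENSMUSG00000022817, chromosome 16 from 33829665 to 33949338), which pairs with alpha v to bind vitronectin, had 5218 control and 6071 *Myl3*-KO counts, or 95.91 and 145.81 FPKM. Its log2 ratio was 0.60 (95% interval 0.55 to 0.66, adjusted p = 2.4e-107, exact binomial test), which is 1.52-fold. *Itgb1* (ENSMUSG00000025809, chromosome 8 from 128685654 to 128733200), the shared partner of the collagen, laminin and fibronectin receptor chains, had 19152 and 13685 counts, or 285.04 and 266.15 FPKM. It was slightly lower, with a log2 ratio of -0.10 (interval -0.13 to -0.07, adjusted p = 1.3e-08, exact binomial test). The sum of the 8 beta chains went from 381.49 to 413.19 FPKM, of which *Itgb1* made up 74.7% and 64.4% and *Itgb5* 25.1% and 35.3%.

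*Itgb3* (ENSMUSG00000020689, chromosome 11 from 104608000 to 104670476), the beta chain of the alpha v beta3 and platelet receptors, had 23 control and 49 *Myl3*-KO counts, or 0.23 and 0.63 FPKM. The log2 ratio was 1.48 (interval 0.73 to 2.26, adjusted p = 0.000245, exact binomial test). Set against *Itgb5* directly, the change of *Itgb3* was larger by 0.87 on the log2 scale (exact conditional interval 0.13 to 1.66), although its level stayed far below. *Itgb8*, a chain of a receptor that activates latent TGF-beta, had 24 and 35 counts and a log2 ratio of 0.93 (interval 0.14 to 1.74, adjusted p = 0.0492, exact binomial test). TMM scaling and the size factors of DESeq2 took *Itgb8* to the other side of the threshold, with adjusted p = 0.0501 and 0.0507.

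The remaining beta chains were near the floor. *Itgb7*, a lymphocyte chain, had 2 and 8 counts (interval of the log2 ratio 0.06 to 5.66, adjusted p = 0.0660, exact binomial test). *Itgb2*, the leukocyte chain, had 3 counts in each library. *Itgb4*, the hemidesmosome chain that pairs with alpha6, had 4 and 0, and *Itgb6*, an epithelial chain, had 1 and 0.

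The RGD-binding alpha chains held most of the alpha chain signal. The 18 alpha chains summed to 60.72 FPKM in the control and 69.51 in *Myl3*-KO, of which *Itga5* was 40.3% and 39.1% and *Itgav* 30.2% and 29.5%. *Itga5* (ENSMUSG00000000555, chromosome 15 from 103344286 to 103366763), the fibronectin receptor chain, had 1886 and 1606 counts, or 24.44 and 27.19 FPKM, and was 1.11-fold higher (log2 ratio 0.15, interval 0.06 to 0.25, adjusted p = 0.00695, exact binomial test). *Itgav* (ENSMUSG00000027087, chromosome 2 from 83724397 to 83806916), the partner of beta3, beta5 and beta8, had 1996 and 1638 counts, or 18.33 and 20.53 FPKM, and did not pass (log2 ratio 0.10, interval 0.01 to 0.20, adjusted p = 0.0908, exact binomial test). The ratios of *Itga5* and *Itgav* differed by 0.05, with an interval of -0.08 to 0.19.

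*Itga2b* (ENSMUSG00000034664, chromosome 11 from 102453297 to 102470122), known as the platelet fibrinogen receptor chain that pairs with beta3, was the least abundant of the 9 genes at 1 FPKM or more by its mean. It had 231 control and 292 *Myl3*-KO counts, or 3.82 and 6.30 FPKM, and a log2 ratio of 0.72 (interval 0.47 to 0.98, adjusted p = 1.4e-07, exact binomial test). Of the other platelet and megakaryocyte markers, *Pf4*, *Gp9* and *Treml1* were at 0 in both libraries, *Ppbp* had 3 and 6 counts and *Gp1ba* 20 and 17. *Itga8* (ENSMUSG00000026768, chromosome 2 from 12106632 to 12301922), the nephronectin receptor chain of mesenchymal cells, had 17 and 30 counts, or 0.17 and 0.38 FPKM. It was higher by 1.21 on the log2 scale (interval 0.30 to 2.16, adjusted p = 0.0178, exact binomial test).

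*Itga9* (ENSMUSG00000039115, chromosome 9 from 118606690 to 118901003), which binds tenascin C and osteopontin, had 25 and 41 counts and a log2 CPM ratio of 1.10 (interval 0.35 to 1.88, adjusted p = 0.0102, exact binomial test). Its FPKM of 0.29 and 0.47 gave a log2 ratio of 0.70 and thus not past 2-fold. Its relative *Itga4*, a chain of leukocytes and neural crest, had 0 and 1 counts.

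Of the 4 collagen-binding alpha chains, all under 1 FPKM, 3 were tested and 0 passed counting error. Among all genes tested 18.6% were higher and 16.8% lower past counting error, and at those shares 3 genes would hold few calls or 0. *Itga10* (ENSMUSG00000090210, chromosome 3 from 96645584 to 96664519), the collagen receptor chain typical of chondrocytes, had 22 control and 29 *Myl3*-KO counts, or 0.25 and 0.43 FPKM (log2 ratio 0.78, interval -0.07 to 1.65). *Itga11* (ENSMUSG00000032243, chromosome 9 from 62677826 to 62783982), the collagen receptor chain of fibroblasts and the highest of this group, had 53 and 47 counts, or 0.61 and 0.70 FPKM (log2 ratio 0.21, interval -0.39 to 0.81). The ratios of these 2 differed by 0.57 with an interval of -0.49 to 1.64, so unequal change was not detectable at this depth. *Itga1* had 38.47 and 34.52 expected counts and overlaps *Pelo* on the same strand, which had 289.48 and 232.03, so reads may have been divided between both. *Itga2* was at 0.

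Of the laminin-binding alpha chains, 1 was abundant. *Itga3* (ENSMUSG00000001507, chromosome 11 from 95044474 to 95076801) had 989 control and 768 *Myl3*-KO counts, or 11.58 and 11.76 FPKM, and a log2 ratio of 0.02 (interval -0.12 to 0.16). *Itga6*, the partner of beta4 and beta1, had 21 and 24 counts (log2 ratio 0.58, adjusted p = 0.315, exact binomial test). *Itga7*, best known from muscle, had 44 and 49 counts (log2 ratio 0.54, interval -0.08 to 1.16). None of the 3 passed the test, where 18.6% of all genes tested were higher and 16.8% lower past counting error. *Myod1*, *Myf5*, *Myog*, *Pax7*, *Des* and *Ckm* were among the 8 of 16 muscle markers at 0 in both libraries, while *Cdh15* went from 73 to 290 counts, *Pax3* had 143 and 139, *Acta1* had 5 and 1 and the list's sum from 3.79 to 9.75 FPKM. The part of other cells in the *Itga7* values was not tested.

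The leukocyte alpha chains were at or near 0. *Itgae* had 6 and 4 counts and overlaps *Haspin* on the other strand, which had 296 and 163. *Itgax* had 2 and 3 counts, *Itgad* 0 and 1, and *Itgal* and *Itgam* 0. The pan-leukocyte marker *Ptprc* had 1 and 0 counts, and 8 of 14 immune markers were at 0 in both libraries, with list sums of 3.21 and 3.06 FPKM. The 3 highest immune markers were *Cd14* with 50 and 30 counts, *Cd68* with 18 and 16 and *Lyz2* with 6 and 5, and none passed the test.

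Among the 7 laminins tested, the 3 beta chains (42.9%) were higher past counting error in *Myl3*-KO, where 18.6% of all genes tested were. Of these, *Lamb3* had only 6 and 15 counts and did not pass in every setting. The gamma chain *Lamc1* had a log2 ratio of -0.00, and the alpha chains stayed under 1 FPKM. *Lamb2* (ENSMUSG00000052911, chromosome 9 from 108479736 to 108490530), a chain of muscle, nerve and kidney basement membranes, had 3079 control and 3200 *Myl3*-KO counts. Its log2 CPM ratio was 0.44 (interval 0.37 to 0.51, adjusted p = 9.7e-32, exact binomial test). *Lamb1* (ENSMUSG00000002900, chromosome 12 from 31265234 to 31329644), the beta chain of the early embryonic laminins, had 667 and 674 counts, or 6.58 and 8.74 FPKM, and a log2 ratio of 0.40 (interval 0.24 to 0.56, adjusted p = 3.8e-06, exact binomial test). The ratios of *Lamb1* and *Lamb2* differed by -0.04, with an interval of -0.21 to 0.13.

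*Lamb3* (ENSMUSG00000026639, chromosome 1 from 193207699 to 193343878), the beta chain of the epithelial laminin-332, had 6 and 15 counts, or 0.08 and 0.27 FPKM, and a log2 ratio of 1.71 (interval 0.26 to 3.36, adjusted p = 0.0401, exact binomial test). With no filter on low counts *Lamb3* did not pass (adjusted p = 0.0713). *Lama3*, the alpha chain of the same laminin, was at 0. Among the 10 epithelial markers, *Epcam*, *Krt18*, *Krt19* and *Cldn4* were at 0 in both libraries, *Krt5* had 9 and 2 counts, *Dsp* 8 and 9, and *Trp63* rose from 29 to 54 counts (log2 ratio 1.28), with list sums of 0.71 and 1.29 FPKM. The part of epithelial cells in the *Lamb3* counts was not tested.

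For *Lamb2* the size of the difference depended on the unit. Its FPKM of 37.78 and 60.27 gave a log2 ratio of 0.67, against 0.44 from the counts. Dividing CPM by FPKM gives the transcript length behind the deposited FPKM, which was 4.63 kb in the control and 3.94 kb in *Myl3*-KO for *Lamb2*. Of the 8219 genes with at least 500 counts, 135 (1.64%) had as large a shift. For *Itga9* the same length went from 4.89 to 6.47 kb.

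**Figure D4:**
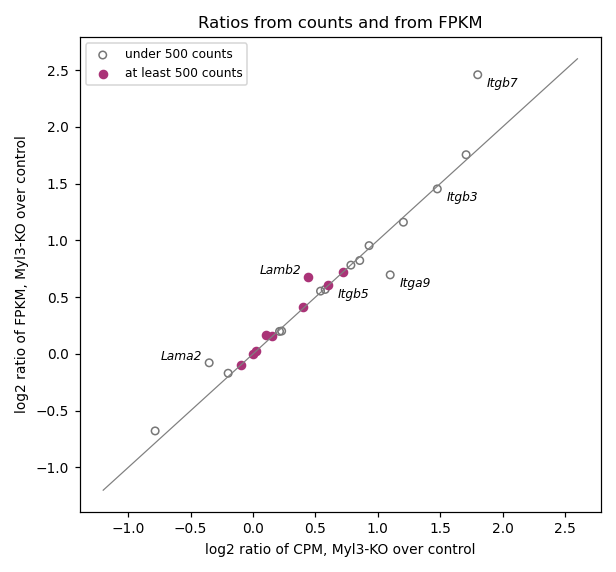
Log2 ratio of FPKM against log2 ratio of CPM, *Myl3*-KO over control, for the integrin and laminin genes tested, open circles under 500 counts and filled circles at 500 or more, with the line of equal ratios. *Lamb2* lies above the line at 0.67 against 0.44 and *Itga9* below it at 0.70 against 1.10.

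*Lamc1* (ENSMUSG00000026478, chromosome 1 from 153218922 to 153332786), the gamma chain of most laminins, had 3904 control and 2987 *Myl3*-KO counts and 29.08 FPKM in each. The interval of its log2 ratio was -0.07 to 0.07. *Lamc3* had 0 and 1 counts. The 5 alpha chains, which carry the main integrin-binding site of a laminin, summed to 0.40 and 0.46 FPKM, where the 3 beta chains summed to 44.44 and 69.28 FPKM. *Lama5* had 26 and 36 counts (log2 ratio 0.86, interval 0.09 to 1.64, adjusted p = 0.0580, exact binomial test). *Lama2*, the alpha chain of muscle and nerve and the highest of the alpha chains by mean FPKM, had 15 and 9 counts, and *Lama4*, that of vessels, 9 and 4. The interval of the difference between *Lama4* and *Lama5* was -3.92 to 0.41 and that between *Lama2* and *Lama4* was -1.91 to 2.96, so neither was detectable at this depth. Of 7 pairs of related chains set against each other in this way, *Itgb3* with *Itgb5* was the 1 whose interval left out 0, and these intervals are not adjusted for the number of pairs.

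Of the genes that work with these receptors and their ligands, 0 passed 2-fold outside the basement membrane list. Among all genes tested 1.15% were higher and 0.394% lower past 2-fold, and at those shares lists this short would hold few such genes or 0. Among all genes tested, 18.6% were higher and 16.8% lower past counting error, which is the background for the lists that follow. Of 22 tested genes of integrin activation and linkage to actin, 9 (40.9%) were higher past counting error and 2 (9.09%) lower, with a median log2 ratio of 0.10. The 2 most abundant, the adaptor *Lims1* and the GTPase *Rap1b*, had log2 ratios of -0.04 and -0.05 and did not pass. Of 10 membrane partners of integrins, 4 (40%) were higher and 2 (20%) lower, with a median of 0.05. The latter were *Bsg*, a glycoprotein that associates with beta1 integrins, at 16304 and 9550 counts (log2 ratio -0.39, interval -0.42 to -0.35), and the tetraspanin *Cd63* (log2 ratio -0.05).

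Of 12 tested integrin ligands, 7 (58.3%) were higher past counting error and 3 (25%) lower, with a median of 0.14. *Fn1*, which encodes fibronectin, the ligand of alpha5 beta1, had 53988 and 60449 counts, or 379.94 and 558.41 FPKM (log2 ratio 0.55, interval 0.53 to 0.57). *Thbs1*, which encodes thrombospondin 1, had 494.27 and 541.76 FPKM (log2 ratio 0.13).

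Of 13 tested partners of laminin in basement membranes, 7 (53.8%) were higher past counting error and 2 (15.4%) lower, with a median of 0.34. Higher past 2-fold were 2 (15.4%, against 1.15% of all genes tested): *Col4a2*, a chain of type IV collagen, with 5 and 22 counts (log2 ratio 2.52, interval 1.09 to 4.28), and the laminin-related *Ntn4* with 26 and 57 (log2 ratio 1.52, interval 0.83 to 2.25). *Sparc*, a collagen-binding protein, had 708.37 and 707.49 FPKM (log2 ratio 0.00), and *Smoc2* had 25.18 and 32.25 FPKM (log2 ratio 0.36). Of 7 tested laminin receptors that are not integrins, 4 (57.1%) were higher past counting error and 1 (14.3%) lower, with a median of 0.12. The lower one was *Rpsa*, a ribosomal protein also known as a laminin receptor, at 1618.43 and 1546.33 FPKM (log2 ratio -0.06), and the sarcoglycan *Sgce* had a log2 ratio of 0.00.

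In the deposited annotation of the ECM-receptor interaction pathway, 57 genes were tested, of which 23 are integrin or laminin genes described here. Their median log2 ratio was 0.54, that of the other 34 was 0.14 and that of all genes tested 0.02. The 23 are part of the 24 tested above, of which 15 had under 500 counts. Over all genes tested under 500 counts the median was 0.10. Other marker lists that could bear on these values moved too. In the fibroblast list, *Dcn* went from 631 to 155 counts (log2 ratio -1.64) and *Lum* from 272 to 81 (log2 ratio -1.36). *Col1a2*, *Col3a1* and *Prrx1*, the most abundant of that list, had log2 ratios of 0.22, 0.01 and 0.23, and *Col3a1* turned to -0.01 under TMM scaling. The chondrocyte marker *Sox9* went from 866 to 480 counts (log2 ratio -0.47), *Sox5* had 893 and 684 (log2 ratio 0.00) and *Col11a2* 293 and 395 (log2 ratio 0.82).

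The sum of the 10 pericyte and smooth muscle markers went from 55.78 to 78.90 FPKM, led by *Pdgfrb* at 38.74 and 63.35 FPKM. *Cspg4* had a log2 ratio of 0.48, *Mcam* of -0.33 and *Acta2* of -0.05. The others of this list were at or near 0, with *Abcc9* at 0 in both libraries. *Notch3* had 2 and 2 counts, *Tagln* 1 and 2, *Cnn1* 4 and 1, *Myh11* 7 and 2 and *Rgs5* 7 and 14. The 10 endothelial markers summed to 0.61 and 0.83 FPKM with *Cdh5*, *Tie1*, *Emcn* and *Cldn5* at 0 in both libraries. The 3 highest were *Flt1* with 29 and 16 counts, *Vwf* with 22 and 29 and *Esam* with 1 and 5. Of the Schwann cell markers, *Pmp22* had 82.83 and 89.96 FPKM (log2 ratio 0.11), and *Sox10* and *Foxd3* were at 0 in both. The part of other cell types in the integrin and laminin values was not tested.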

How the data were processed

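RNA was sequenced from primary chondrocytes, 1 library of each genotype. Per gene, the authors deposited expected counts (reads estimated and not normalized) and FPKM values, scaled by transcript length and library. The submitters' processing notes name GRCm38 and mm10. The aligner, the counting tool and the strand setting are not given in the sources used here. The column headed NC was read as the control, since the other is headed KO.

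CPM was computed from the library totals, and any count below 3 was set to 3 before ratios were taken. Expected counts were rounded for the binomial test, which covered genes reaching 10 counts over both libraries. With 1 library per group, edgeR's quasi-likelihood test has no residual degrees of freedom and was not run. The alternatives were TMM and DESeq2 scaling, other filters, 1 added count, FPKM ratios with 0 replaced by 0.001, other limits on the ratio, and an exact test of edgeR in which the coefficient of variation was set by hand. Depth limits precision as the intervals show. The script for the test was tested on simulated data. Positions and overlaps come from GENCODE M21 on GRCm38, and promoters from RefSeq on GRCm38.p6.

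The genes and lists were chosen with earlier results of these data known. Full values are given for genes past 2-fold, those past counting error with 100 counts or more over both libraries, and the highest by mean FPKM of each group. Other pathway lists name those past 2-fold and the 2 highest, and marker lists the 3 highest, those past 2-fold and defining markers at or near 0. Some markers are not reported here. The symbols *Snorc*, *Ccn1* and *Ccn2* were not matched. R 4.3.3 ran edgeR 4.0.16 and DESeq2 1.42.0, and Python 3.11.15 ran scipy 1.17.1, numpy 2.4.6, matplotlib 3.10.9 and pandas 2.3.3.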

Additional observations from a re-analysis of the deposited data

How the results depend on the processing

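No paired analysis was possible because each group had 1 library, and for the same reason no library could be left out. With 1 library per genotype, no spread between replicates could be measured. When edgeR was given a coefficient of variation of 0.1, 0.2 or 0.4 for its exact test, the genes higher past 2-fold went from 4 to 0, those higher past counting error from 10 to 0 and those lower from 1 to 0. In the whole table the 2307 higher and 2090 lower past counting error became 41 and 20 at 0.1, 3 and 1 at 0.2, and 1 and 0 at 0.4. A limit of 2 on the log2 ratio left 0 of the 24 integrin and laminin genes past it and one of 0.5 left 7, all higher. Of all 12431 genes tested, 31 were higher and 5 lower at a limit of 2. At a limit of 0.5 these counts were 501 and 170.

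The median log2 ratio of 0.49 moved to 0.39 with no filter, where genes at the floor in both libraries take the ratio of the totals by construction, and lay between 0.47 and 0.56 under the other alternatives. At least 10 counts in each library, which tests fewer genes, left 91 genes higher and 31 lower past 2-fold in the whole table, against 143 and 49. TMM scaling gave 2059 higher and 2347 lower past counting error, and DESeq2 size factors 1971 and 2426. *Lamb3* could not be tested with 10 counts in each library, and with no filter *Itgb8* had an adjusted p of 0.0874 (exact binomial test). Of 211 single comparisons of the 24 genes with an alternative, 173 kept direction and side of the threshold, 37 lost the call and 1 reversed. Part of the 173 was fixed in advance. The FPKM and 1 added count settings reuse the main adjusted p, so for all 24 genes the side of the threshold could not change. The edgeR settings reuse the main ratio, so direction could not change. At each coefficient, 13 genes stayed uncalled and the 11 called lost the call.

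That one was *Itga3*, at -0.0028 with DESeq2 size factors. From FPKM, chosen as an alternative for the pairs after seeing the data, the difference of *Itga5* and *Itgav* was -0.0097 and that of *Lamb1* and *Lamb2* -0.26. Of the other genes named, *Col3a1* reversed to -0.0064 with TMM factors, -0.012 with DESeq2 size factors and -0.032 from FPKM, and *Sgce* to -0.014 with TMM and -0.020 with DESeq2. *Sox5* reversed to -0.017 with TMM and -0.023 with DESeq2, and *Sparc* to -0.014 with TMM, -0.020 with DESeq2 and -0.0018 from FPKM. The cause of these shifts was not tested.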

Other observations

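Of the type IV collagen chains, the other network-forming proteins of basement membranes, *Col4a5* had 2363 control and 1665 *Myl3*-KO counts (log2 ratio -0.12), while *Col4a1* had 1 and 2, *Col4a2* 5 and 22, *Col4a3* 7 and 2, *Col4a4* 10 and 5 and *Col4a6* 2 and 3. These chains and the genes of the next sentences were named after their values were seen. Of the nidogens, which link laminin to type IV collagen, *Nid1* was at 0 in both libraries and *Nid2* had 536.1 and 303.49 expected counts (log2 ratio -0.43). The linker *Agrn* had 339 and 328 counts (log2 ratio 0.34) and the perlecan gene *Hspg2* 5018 and 4215 (log2 ratio 0.13). Of the integrin activators, the talin gene *Tln1* had 5071 and 5028 counts (log2 ratio 0.37) and the kindlin gene *Fermt2* 3020 and 2007 (log2 ratio -0.20). Both passed counting error, in opposite directions.

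Among the integrin ligands 2 tenascin genes were lower, *Tnc* with 1408 and 797 counts (log2 ratio -0.44) and *Tnn* with 2506 and 1128 (log2 ratio -0.77), and a tenascin gene at 2 and 2 counts, *Tnr*, was not tested. The fibrillin gene *Fbn1* had 3272.9 and 3973.8 expected counts (log2 ratio 0.67) and the osteopontin gene *Spp1* 207 and 247 (log2 ratio 0.64). *Tnc*, *Tnn*, *Fbn1* and *Spp1* passed counting error.

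The longest transcript that GENCODE M21 lists for *Lamb2* is 5629 bases and the next 683, against the 4.63 and 3.94 kb behind its deposited FPKM. For *Itga9* the longest listed transcript is 7020 bases and the next 1935, against 4.89 and 6.47 kb.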
